A study of Homo sapiens with 4 samples.

Results

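The repressor genes GFI1 and GFI1B and the genes of their LSD1-CoREST corepressor were followed as 9 genes of the 19912 in the count table, chosen by name: GFI1, GFI1B, KDM1A, RCOR1, RCOR2, RCOR3, HDAC1, HDAC2 and HMG20B. All 9 were found, and all 9 were among the 11380 genes with enough counts to be tested. The cells were endothelial cells positive for a GATA2/eGFP reporter, made by differentiating H1, an established line of human embryonic stem cells. Wild-type cells (WT, 2 libraries) were compared with cells in which GFI1 was knocked out (GFI1-KO, 2 libraries), to ask how the endothelial transcriptome differs without GFI1. Both genotypes share the H1 background, the reporter and the sort. The sources used here do not give the part of GFI1 that was altered, the number of knockout clones or whether the replicates were separate differentiations, and p-values therefore reflect just how far these libraries spread, which may be technical.

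GFI1 and its paralog GFI1B are zinc-finger proteins that bind DNA and shut genes off. At their N-terminus lies the SNAG domain, a short peptide that resembles the tail of histone H3 and docks into LSD1, the histone H3 lysine 4 demethylase encoded by KDM1A. LSD1 is held to chromatin by a CoREST scaffold (RCOR1, RCOR2 or RCOR3) together with the deacetylases HDAC1 and HDAC2, and HMG20B is a further subunit. In the mouse, Gfi1 and Gfi1b are known for silencing endothelial genes in hemogenic endothelium, the endothelium that gives rise to blood.

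The first 20 codons of each paralog are shown because they hold the SNAG domain, the part that docks LSD1. They lie at chr1:92483428-92483487 (minus strand) for GFI1 and chr9:132986679-132986738 (plus strand) for GFI1B, in GENCODE release 29 on GRCh38. Capitals mark the 48 of 60 bases that are the same in both genes:
GFI1: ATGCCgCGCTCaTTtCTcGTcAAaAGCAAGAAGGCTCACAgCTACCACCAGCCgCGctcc
GFI1B: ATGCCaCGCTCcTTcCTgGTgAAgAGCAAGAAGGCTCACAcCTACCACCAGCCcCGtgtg
Of the 20 codons, 10 were identical in all bases. Over the whole transcripts, the longest identical run between the pair was 38 bases. No window of 50 bases of the GFI1 or the GFI1B transcript was found in a transcript of another gene, so reads of that length or longer can be told apart between the paralogs. The same search found shared windows for 9 of 2075 in HDAC1 (with the pseudogene HDAC1P2), 13 of 2555 in RCOR2 and 2 of 9825 in HDAC2, and 0 in KDM1A, RCOR1, RCOR3 and HMG20B.

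The promoters of both repressor genes are shown because GFI1 is known to bind its own gene and that of its paralog, at sites with the core AATC. These are the 250 bases before a RefSeq start (GRCh38.p14), at chr1:92486926-92487175 (minus strand) for GFI1 and chr9:132978444-132978693 (plus strand) for GFI1B, with AATC, or GATT where it lies on the other strand, in capitals:
GFI1: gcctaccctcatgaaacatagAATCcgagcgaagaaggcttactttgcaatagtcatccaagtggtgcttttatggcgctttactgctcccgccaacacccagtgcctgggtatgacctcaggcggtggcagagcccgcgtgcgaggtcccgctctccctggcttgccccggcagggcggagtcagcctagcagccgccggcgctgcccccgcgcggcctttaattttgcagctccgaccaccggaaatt
GFI1B: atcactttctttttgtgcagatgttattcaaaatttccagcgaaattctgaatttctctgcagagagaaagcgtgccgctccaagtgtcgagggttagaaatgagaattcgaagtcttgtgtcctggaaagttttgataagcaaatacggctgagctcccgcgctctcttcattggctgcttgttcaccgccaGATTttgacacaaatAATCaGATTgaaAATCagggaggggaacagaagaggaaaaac
The GFI1 window held 1 match and the GFI1B window 4, all in its last part before the start. At least 1 match was found in 64.8% and at least 4 in 7.15% of 35116 promoters of this length. The GFI1B window had 42.8% G or C and the GFI1 window 61.2%. The other RefSeq starts held 0 and 1 matches for GFI1 and 2 for GFI1B. A match of these letters is a description and not a binding site, and no binding was measured here.

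The 4 libraries were of unequal depth. The total was 146584 counts in GFI1-KO replicate 1 and 2239214 to 2417410 in the 3 deeper libraries, so 1 count was worth 6.62 CPM in that library and 0.42 to 0.447 CPM in the others. CPM here are counts scaled to the library's sum over the tested genes (per 1e6 counts) with the TMM factor, which adjusts for composition. Intervals are exact 95% Poisson intervals unless named otherwise and take in counting error alone, as no molecular identifiers were used here. The sorted cells carried endothelial markers: all 10 of a list that includes CDH5, PECAM1 and KDR had counts in every library, at a summed 6402 and 6614 CPM in WT against 7777 and 9210 CPM in GFI1-KO. KDR was the largest part of that sum, at 2995 and 3285 CPM in WT against 3703 and 4970 CPM in GFI1-KO (edgeR adjusted p = 0.561). By log2 fold change, PECAM1 alone went against the sum, at 443 and 388 CPM in WT against 344 and 324 CPM in GFI1-KO. ESAM was at 272 and 289 CPM in WT against 258 and 381 CPM in GFI1-KO. A list of 6 pluripotent stem cell genes, carried by LIN28A with NANOG at 0 in all 4 libraries, summed to 724 and 757 CPM in WT against 603 and 560 CPM in GFI1-KO, lower in both as GFI1 was. Mesenchymal and smooth muscle genes summed to 1053 to 1675 CPM and epithelial genes to 219 to 599 CPM, with the genotypes overlapping for the epithelial and the mesenchymal list. The part of these markers in the results was not tested. In bulk RNA, fewer cells of a type and less RNA per cell cannot be told apart.

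The targeted gene GFI1 was lower in both libraries labelled GFI1-KO. It stood at 58.5 and 58.3 CPM in WT replicates 1 and 2, and at 19.9 and 19.6 CPM in GFI1-KO replicates 1 and 2. The 2 values within each genotype lay close together and the genotypes did not overlap, although the value in GFI1-KO replicate 1 rests on 3 counts (interval 4.10 to 58.1 CPM). The log2 fold change, GFI1-KO over WT, was -1.57 (SE 0.31, approximate 95% interval -2.23 to -0.92, edgeR adjusted p = 0.0215), and 0.721% of all genes tested had a lower value. As a fold, GFI1-KO was at 0.337 of WT. Over 13 other settings of the fit, the GFI1 value stayed between -1.60 and -1.54. It passed in 9 of them and not with DESeq2 (DESeq2 adjusted p = 0.582), without WT replicate 1 (0.137), without WT replicate 2 (0.096) or without GFI1-KO replicate 2 (0.271).

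GFI1B, which can take the place of GFI1 at many targets, was not raised in GFI1-KO cells. It was at 49.6 and 31.9 CPM in WT against 33.1 and 20.5 CPM in GFI1-KO. The groups overlapped, since GFI1-KO replicate 1, on 5 counts, lay just above WT replicate 2. The log2 fold change was -0.87 (SE 0.37, approximate 95% interval -1.65 to -0.10, unadjusted p = 0.0294, edgeR adjusted p = 0.433). It ran from -1.12 without WT replicate 2 to -0.29 without GFI1-KO replicate 2, and the smallest adjusted p over all settings was 0.0921, without the shallow GFI1-KO replicate 1. Exons of GFI1B overlap those of TSC1 on the other strand over 349 bases, 5.72% of its exon length. TSC1, a tumour suppressor gene of the mTOR pathway, was at 83.1 and 86 CPM in WT against 106 and 77 CPM in GFI1-KO.

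**Figure D1:**
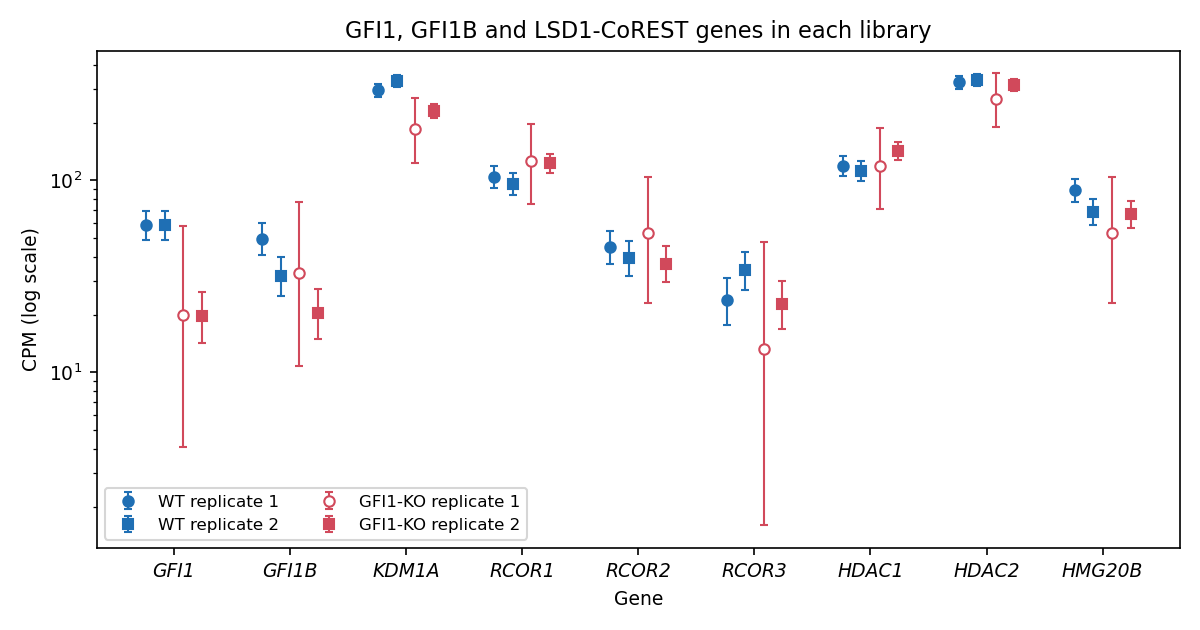
Level of each of the 9 genes in each library in CPM, on a log scale, with exact 95% Poisson intervals for counting error; blue marks WT, red GFI1-KO, and the open circle the shallow GFI1-KO replicate 1. GFI1 sits at 58.5 and 58.3 CPM in WT against 19.9 and 19.6 CPM in GFI1-KO, and the intervals of the shallow library are the widest for each gene.

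KDM1A, the catalytic LSD1 subunit, was at 295 and 328 CPM in WT against 185 and 231 CPM in GFI1-KO. Both GFI1-KO libraries lay below both WT libraries, on 28 and 518 counts against 660 and 781. Its fold was 0.694, with a log2 fold change of -0.53 (SE 0.22, edgeR unadjusted p = 0.0304). The ratio of pooled counts was 0.73, with a counting interval of 0.661 to 0.807. It did not pass over all genes (edgeR adjusted p = 0.435), and 10.2% of tested genes had a lower value. The smallest adjusted p over the other settings was 0.19, and the value stayed between -0.74 and -0.43, so its sign held in each.

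The CoREST scaffold genes did not move together, and none passed. RCOR1, the best-known scaffold, was at 104 and 96.1 CPM in WT against 126 and 123 CPM in GFI1-KO, with no overlap (log2 fold change 0.30, SE 0.24, edgeR adjusted p = 0.828). RCOR2, a scaffold prominent in embryonic stem cells, was at 45.1 and 39.4 CPM in WT against 53 and 36.9 CPM in GFI1-KO. Its GFI1-KO values lay on either side of both WT values (log2 fold change -0.09, SE 0.30, adjusted p = 0.98). RCOR3, described as a weaker partner that can oppose LSD1 activity, was at 23.7 and 34 CPM in WT against 13.2 and 22.7 CPM in GFI1-KO (log2 fold change -0.43, SE 0.37, adjusted p = 0.852). The 2 counts of RCOR3 in GFI1-KO replicate 1 are below the fixed limit of 3 counts taken here for a count of 0. The approximate 95% intervals were -0.21 to 0.81 for RCOR1, -0.73 to 0.54 for RCOR2 and -1.22 to 0.35 for RCOR3. The GFI1 value of -1.57 lay outside each of them, while the GFI1 interval (-2.23 to -0.92) overlapped that of RCOR3.

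The deacetylase genes differed little between genotypes. HDAC1 was at 119 and 112 CPM in WT against 119 and 143 CPM in GFI1-KO, with GFI1-KO replicate 1 level with WT replicate 1 to 3 digits (log2 fold change 0.24, SE 0.24, edgeR adjusted p = 0.885). HDAC2 was at 325 and 334 CPM in WT against 265 and 314 CPM in GFI1-KO (log2 fold change -0.15, SE 0.21, adjusted p = 0.937). Both GFI1-KO libraries lay below both WT libraries for HDAC2, by less than the counting interval of the shallow library. The approximate 95% intervals ran from -0.26 to 0.74 for HDAC1 and from -0.60 to 0.30 for HDAC2. HMG20B, which encodes a high-mobility-group subunit, was at 88.9 and 68.8 CPM in WT against 53 and 66.8 CPM in GFI1-KO (log2 fold change -0.30, SE 0.27, adjusted p = 0.858). GFI1-KO replicate 2 and WT replicate 2 had overlapping counting intervals, 56.5 to 78.3 and 58.7 to 80.2 CPM. HMG20B exons overlap those of the opposite-strand gene MFSD12 over 369 bases, 9.57% of its exon length, and MFSD12 was at 37.5 and 34.8 CPM in WT against 19.9 and 27.2 CPM in GFI1-KO.

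**Figure D2:**
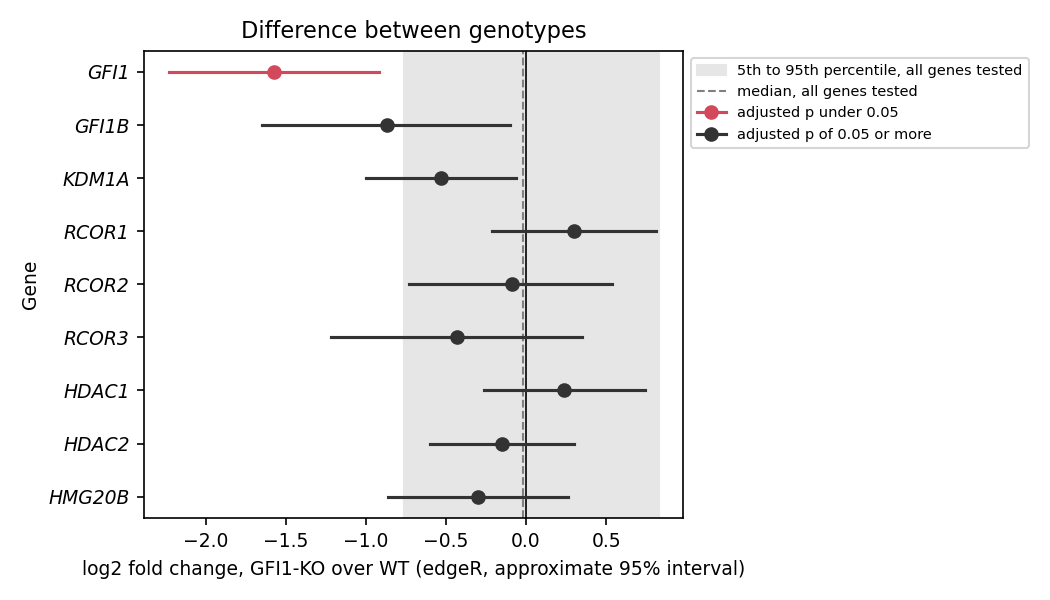
Log2 fold change of each gene, GFI1-KO over WT, from edgeR with its approximate 95% interval; the grey band spans the 5th to 95th percentile of all 11380 genes tested (-0.76 to 0.83) and the dashed line is their median. GFI1 (-1.57) is the gene past the threshold, GFI1B (-0.87) is the other gene outside the band, and the 7 remaining genes lie inside it.

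Read as a group, 1 of the 9 genes was called, GFI1 itself, against 0.958% of all genes tested (0.185% lower and 0.773% higher in GFI1-KO). The share of all genes called was 0.255% with DESeq2, 1.16% with limma-voom, 0.51% with edgeR's newer dispersion, 0.905% with RLE scaling, 0.51% with upper-quartile scaling and 0.633% with library totals only. It was 1.96% without a low-count filter, 0.452% at a mean of at least 5 CPM and 2.87% with a replicate block. Leaving out a library gave 0.534% and 0.833% (WT replicates 1 and 2) and 3.18% and 2.36% (GFI1-KO replicates 1 and 2). Of the 8 others 0 passed with edgeR, DESeq2 or limma-voom, and 2 (GFI1B and KDM1A) had an unadjusted p under 0.05 with edgeR, 2 with limma-voom and 0 with DESeq2. Over all genes tested, 9.35% had such an unadjusted p. For 7 of the 9 genes the genotypes did not overlap, HDAC1 by less than 1 CPM, against 41.2% of all genes tested. Of these, 5 were lower (22.7% of all genes) and 2 were higher (18.6%). The median log2 fold change of the 9 was -0.30, beside -0.02 over all genes tested, and 7 of 9 values were below 0.

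**Figure D3:**
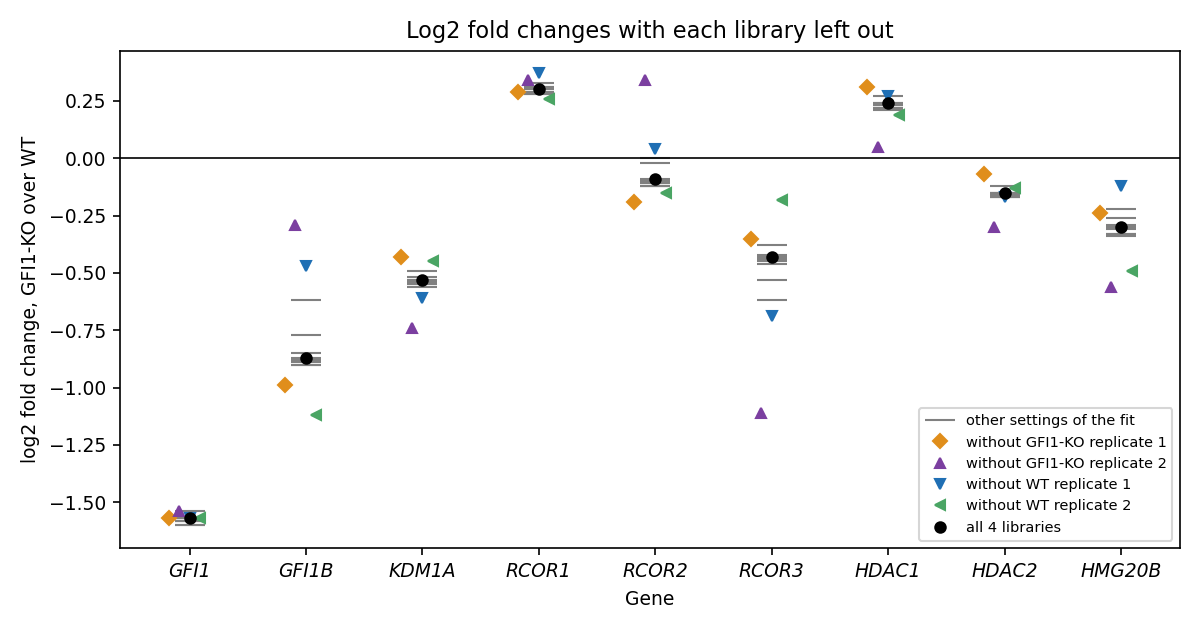
Log2 fold change of each gene, GFI1-KO over WT, with all 4 libraries (black), with each library left out (coloured) and under the other settings of the fit (grey dashes). GFI1 stays between -1.60 and -1.54, GFI1B ranges from -1.12 to -0.29, and RCOR2 is the gene whose sign changes, at 0.04 when WT replicate 1 is left out and at 0.34 when GFI1-KO replicate 2 is.

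Levels between genes were compared per length, as CPM per kb of the longest principal transcript (the APPRIS choice in GENCODE), averaged over the 4 libraries. KDM1A was highest at 85.6, followed by HDAC1 at 58.1, HMG20B at 43.5 and HDAC2 at 31.3 CPM per kb. RCOR1 followed at 19.5, RCOR2 at 16.8, GFI1B at 13.8, GFI1 at 13.7 and RCOR3 at 11.5 CPM per kb. Every pair of neighbours overlapped over the libraries except HDAC2 and RCOR1, which left the demethylase, deacetylase and HMG20B genes above the scaffold and repressor genes. Per kb of all annotated exons, the order was KDM1A, HDAC1, HDAC2, RCOR1, HMG20B, RCOR2, GFI1, GFI1B and RCOR3, with RCOR1 and HMG20B at 18.1 and 18 CPM per kb. In WT, GFI1 stood at 20.5 and 20.4 CPM per kb of principal transcript, above RCOR1 at 18.2 and 16.7. In GFI1-KO, it stood at 6.96 and 6.86, against 21.9 and 21.4 for RCOR1.

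Paralogs that can fill the same place in the complex were compared within each library, which needs no scaling between libraries. HDAC1 made up 26.9% and 25.1% of the HDAC1 and HDAC2 counts in WT against 31% and 31.3% in GFI1-KO. The exact binomial 95% intervals of the deep libraries were 24.1% to 29.7% and 22.5% to 27.8% in WT against 28.4% to 34.2% in GFI1-KO replicate 2. In the shallow GFI1-KO replicate 1 the HDAC1 share rests on 18 of 58 counts. Its interval there, 19.5% to 44.5%, takes in both WT values. RCOR1 made up 60.3% and 56.7% of the counts of the 3 scaffold genes in WT against 65.5% and 67.3% in GFI1-KO. RCOR3 made up 13.7% and 20% in WT against 6.9% and 12.4% in GFI1-KO, and RCOR2 26% and 23.3% in WT against 27.6% and 20.2% in GFI1-KO. For HDAC1, RCOR1 and RCOR3 the 2 genotypes did not overlap, and for RCOR2 they did. The scaffold shares are parts of 1 sum and not separate results. In GFI1-KO replicate 1 the interval was 45.7% to 82.1% for RCOR1 and 0.846% to 22.8% for RCOR3, on 2 of 29 counts. Both intervals take in the WT values. In CPM, 41.2% of all genes tested did not overlap, and no such percentage was computed for shares. GFI1B made up 45.9% and 35.3% of the GFI1 and GFI1B counts in WT against 62.5% and 51.1% in GFI1-KO, a share that rises when GFI1 counts are fewer. In GFI1-KO replicate 1 the GFI1B share rests on 5 of 8 counts (interval 24.5% to 91.5%). These shares were not tested, and an exact permutation test of 2 against 2 libraries could reach p = 0.333 at the lowest.

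Weighted by length (per kb of all annotated exons), HDAC1 was 57.8% ± 1.56 of the deacetylase pair in WT against 63.8% ± 0.169 in GFI1-KO (SD, n = 2 libraries each). The small SD in GFI1-KO comes from 63.7% and 63.9%, and the first of these rests on 58 counts of the pair. Each SD in GFI1-KO takes in this shallow library and leaves out its counting error. RCOR1 was 46.5% ± 0.594 and 52.4% ± 4.22 of the scaffolds, RCOR2 44.3% ± 2.14 and 42.4% ± 6.64, and RCOR3 9.18% ± 2.73 and 5.26% ± 2.43, each in WT and GFI1-KO. GFI1B was 27.1% ± 6.08 of the repressor pair in WT against 41.8% ± 7.98 in GFI1-KO. All of these shares depend on the length used. By counts HDAC1 was the smaller of its pair, and it became the larger once HDAC2 was divided by 15461 bases against 3963. Their principal transcripts were unequal too, at 9874 bases for HDAC2 and 2124 for HDAC1. The order of the pair in CPM per kb rests on the same lengths. With principal transcripts HDAC1 came to 62% in WT and 67.8% in GFI1-KO, RCOR3 to 29.5% and 18.6%, and GFI1B to 44.3% and 60.5%. RCOR2 turned direction, from 34% in WT to 36.1% in GFI1-KO.

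**Figure D4:**
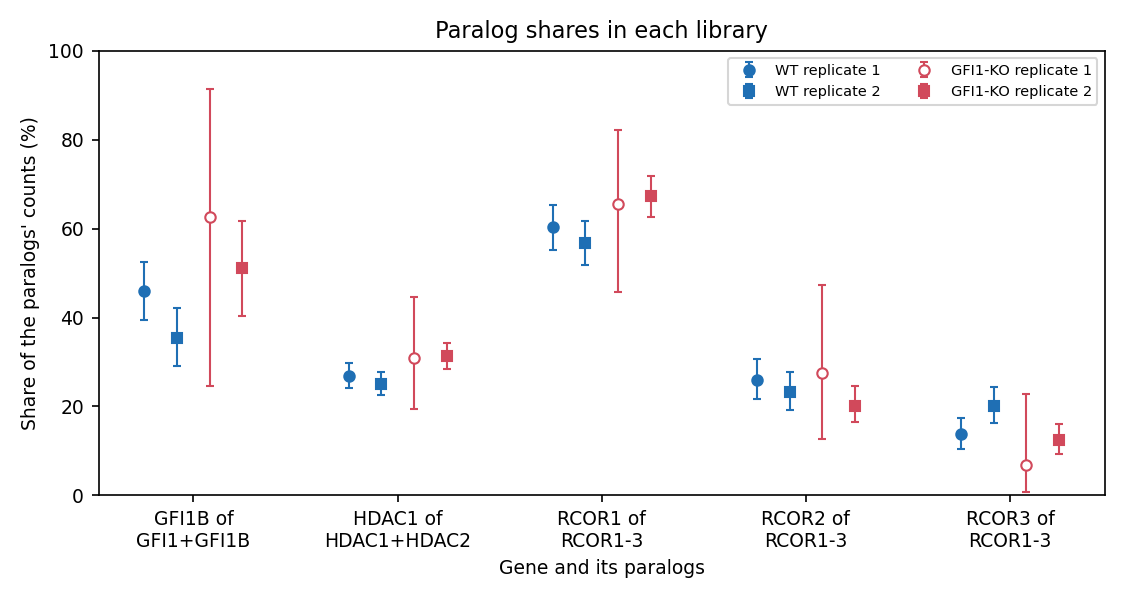
Share of each gene in the summed counts of its paralogs, in percent, in each library with exact 95% binomial intervals; blue marks WT, red GFI1-KO, and the open circle the shallow GFI1-KO replicate 1. HDAC1 lies at 26.9% and 25.1% in WT against 31% and 31.3% in GFI1-KO, and the shallow library has the widest intervals.

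Further genes of the pathway were read from 8 lists that together hold 106 other genes, of which 89 were tested. With edgeR, 0 rose and 1 fell, the reporter gene GATA2, and 12 had an unadjusted p under 0.05. Over all genes tested, 9.35% had such an edgeR p, in either direction. No such percentage was computed by direction, or with DESeq2 or limma-voom. Among 9 further CoREST subunits and partners, including PHF21A and ZMYM2, 0 passed with edgeR, DESeq2 or limma-voom, and 1 had an unadjusted p under 0.05 with each. That gene was GSE1, a subunit found with LSD1, at 146 and 174 CPM in WT against 99.4 and 89.5 CPM in GFI1-KO (log2 fold change -0.80, SE 0.25, edgeR adjusted p = 0.179). With a replicate block GSE1 passed (adjusted p = 0.0402). The list's median was 0.10, with 3 of 9 values below 0. GSE1 thus lay below WT in both GFI1-KO libraries, as KDM1A did, while CTBP1 (-0.22, adjusted p = 0.887), which encodes a corepressor, and REST (0.25, adjusted p = 0.891), which encodes a repressor that recruits CoREST, differed less.

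Of 5 other histone H3 lysine 4 demethylase genes, 0 passed with edgeR, DESeq2 or limma-voom, and 0, 0 and 1 had an unadjusted p under 0.05. KDM5A was at 64.3 and 70.9 CPM in WT against 92.7 and 96.6 CPM in GFI1-KO (log2 fold change 0.50, SE 0.25, edgeR adjusted p = 0.576). Of 20 genes of the other complexes that hold HDAC1 and HDAC2 (SIN3, NuRD and MiDAC), 19 were tested and 0 passed with edgeR, DESeq2 or limma-voom, with 0 at an unadjusted p under 0.05 by each. Their median was -0.08, with values from -0.44 for DNTTIP1 of MiDAC to 0.57. Of 14 other deacetylase and NCoR genes, 13 were tested and 0 passed with edgeR, DESeq2 or limma-voom, and 1, 0 and 2 had an unadjusted p under 0.05. HDAC9, a class IIa deacetylase gene, had the largest value at 2.04 (SE 0.92, adjusted p = 0.474), on 8 and 0 counts in WT against 2 and 15 in GFI1-KO. HDAC9 passed with a replicate block (3.05, edgeR adjusted p = 0.0456), and its value was 1.13 without WT replicate 2 and 6.68 without WT replicate 1, where the WT library that is left has 0 counts and the value depends on the prior count.

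Of 9 other genes for repressors with a SNAG domain, SNAI1 and SNAI2 had enough counts to be tested, and 3 had 0 counts in all 4 libraries. SNAI2, a mesenchymal transition factor gene, was at 23.2 and 18 CPM in WT against 26.5 and 34.3 CPM in GFI1-KO (log2 fold change 0.68, SE 0.35, edgeR adjusted p = 0.6). SNAI1 was at 26.3 and 29 CPM in WT against 13.2 and 53.9 CPM in GFI1-KO, on either side of WT (log2 fold change 0.74, SE 0.35, adjusted p = 0.518), and its value was -1.05 without GFI1-KO replicate 2. Neither passed with edgeR, DESeq2 or limma-voom, and 1, 0 and 2 had an unadjusted p under 0.05. SNAI1 passed without GFI1-KO replicate 1 (0.96, edgeR adjusted p = 0.0459).

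Of 12 genes for other proteins reported to bind GFI1, 0 passed with edgeR, DESeq2 or limma-voom, and 0 had an unadjusted p under 0.05 by each. RUNX1T1, which encodes the corepressor ETO, was at 74.1 and 94 CPM in WT against 225 and 96.6 CPM in GFI1-KO (log2 fold change 0.65, SE 0.32, edgeR adjusted p = 0.575). The high value came from the shallow library, and without GFI1-KO replicate 2 the RUNX1T1 value was 1.43 (adjusted p = 0.00431). The list's median was -0.03.

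Genes described elsewhere as GFI1 or GFI1B targets, mostly in blood cells, did not rise as a group. Of 28 listed, 21 were tested, 10 with values above 0 and 11 below, and the median was -0.25. With edgeR, DESeq2 and limma-voom 0 passed, and 5, 4 and 7 had an unadjusted p under 0.05, of which 4, 4 and 6 were higher in GFI1-KO. The edgeR percentage over all genes tested was 9.35%, in either direction. MEIS1, a homeobox gene, was at 76.8 and 52.5 CPM in WT against 185 and 118 CPM in GFI1-KO, with no overlap (log2 fold change 1.08, SE 0.29, edgeR adjusted p = 0.0935). GATA3 had 0.80 (SE 0.26, adjusted p = 0.201). MYC was at 46.4 and 90.2 CPM in WT against 0 and 28.9 CPM in GFI1-KO (log2 fold change -1.44, SE 0.41, adjusted p = 0.135), where the exact Poisson interval of the 0 counts in the shallow library reaches 24.4 CPM. MEIS1 passed without either GFI1-KO library (edgeR adjusted p = 0.0365 and 0.00435), without a low-count filter (0.0103) and with a replicate block (0.000396). MYC passed without WT replicate 1 (0.00453), without either GFI1-KO library (0.00291 and 0.000957), without a low-count filter (0.000842) and with the block (1.54e-05).

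Of 10 genes for factors that act upstream of GFI1 and GFI1B in hemogenic endothelium, 9 were tested. With edgeR, DESeq2 and limma-voom 0 rose, and 1, 0 and 1 fell. An unadjusted p under 0.05 was found for 4, 1 and 3 of them, of which 3, 1 and 2 were lower in GFI1-KO. The edgeR percentage over all genes tested was 9.35%, in either direction. GATA2, a blood and endothelial factor gene whose reporter was used for the sort, was at 293 and 252 CPM in WT against 139 and 124 CPM in GFI1-KO (log2 fold change -1.09, SE 0.24, edgeR adjusted p = 0.0376). Its call was lost in 7 of the 13 other settings, among them each fit without a WT library (adjusted p = 0.446 and 0.0876) and without GFI1-KO replicate 2 (0.131). RUNX1, which switches on GFI1 in hemogenic endothelium, was at 87.1 and 225 CPM in WT against 39.7 and 67.7 CPM in GFI1-KO (log2 fold change -1.33, SE 0.38, adjusted p = 0.134). The WT libraries differed more from one another for RUNX1 than either GFI1-KO library did from WT replicate 1, while GFI1 was nearly equal in those WT libraries. Among the settings that keep all 4 libraries, RUNX1 passed without a low-count filter (edgeR adjusted p = 0.000419) and with the block (4.05e-06). In these settings 1.96% and 2.87% of all genes were called. RUNX1 did not pass with limma-voom (limma-voom adjusted p = 0.245) or DESeq2. The RUNX1 value was -1.89 without WT replicate 1 and -0.52 without WT replicate 2. Without GFI1-KO replicates 1 and 2 it was -1.21 and -1.97. ERG, an endothelial ETS factor gene, had 0.51 (SE 0.22, adjusted p = 0.434).

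**Figure D5:**
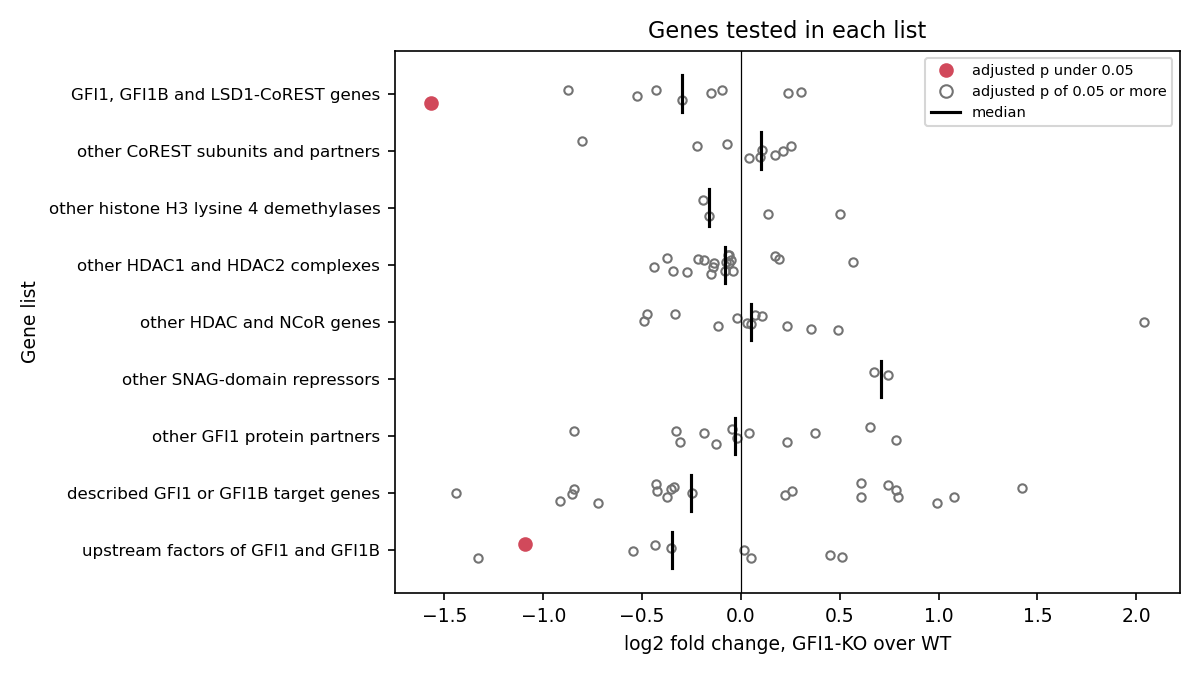
Log2 fold change, GFI1-KO over WT, of every tested gene of the 9 genes studied and of the 8 other lists; red points passed at an edgeR adjusted p under 0.05 and black bars are list medians, with 1 of the 5 demethylase genes counted in its median but not drawn. The red points are GFI1 (-1.57) and GATA2 (-1.09), and the medians with at least 5 genes tested run from -0.35 to 0.10.

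Markers of blood cells were read beside GFI1 and GFI1B. Of 12 erythroid and megakaryocyte genes, 7, all of them globin genes, had 0 counts in all 4 libraries, and the list summed to 13.8 and 22.7 CPM in WT against 6.62 and 7.57 CPM in GFI1-KO. The sum in GFI1-KO replicate 1 is 1 count, below the fixed limit of 3 counts (19.9 CPM there) taken here for a count of 0. ITGA2B, the CD41 gene, was at 7.59 and 19.3 CPM in WT against 0 and 1.78 CPM in GFI1-KO, and PF4, a platelet chemokine gene, went the other way, at 1.34 and 0 CPM against 6.62 and 5.34 CPM. Of 5 leukocyte genes, PTPRC had 0 counts in all 4 libraries, and the list, carried by LAPTM5, summed to 263 and 274 CPM in WT against 212 and 258 CPM in GFI1-KO. The leukocyte sum lay above the levels of GFI1 and GFI1B in each library. LAPTM5 alone was at 230 and 217 CPM in WT against 185 and 231 CPM in GFI1-KO. Whether blood cells were present, and whether they had a part in the GFI1 and GFI1B values, was not tested. Of the endothelial list, EMCN rose (log2 fold change 2.38, SE 0.41, edgeR adjusted p = 0.00959) and passed in all 13 other settings.

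The genes most like GFI1 across the 4 libraries were taken from the 7995 tested genes averaging 20 CPM or more, by the Euclidean distance between log2(CPM + 1) values centred on each gene's mean. The nearest was PRKCA, the protein kinase C alpha gene, at a distance of 0.136, with 39.7 and 39 CPM in WT against 13.2 and 11.6 CPM in GFI1-KO. LHFPL2 (0.262), WNT11 (0.387), which encodes a Wnt ligand, C20orf27 (0.411) and GPC4 (0.437), which encodes a glypican, followed. All of these genes, PRKCA included, were picked for values like those of GFI1 in these same libraries. Their lower values and calls in GFI1-KO are therefore not separate results. Each had 2 to 6 counts in the shallow library, and PRKCA (edgeR adjusted p = 0.0372) and LHFPL2 (0.0171) were called, in 7 and 9 of the 13 other settings too. WNT11 and GPC4 passed without a low-count filter (edgeR adjusted p = 0.0296 and 0.00706), without GFI1-KO replicate 1 (0.00744 and 0.00224) and with the replicate block (0.0448 and 0.00332). Of the corepressor genes, KDM1A was nearest to GFI1 at rank 235 (distance 0.969) and RCOR1 farthest at rank 5945 (1.83), with GFI1B at rank 674 (1.12).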

How the data were processed

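Per the labels' protocols, Trizol RNA was made into libraries with the Illumina TruSeq RNA kit. The authors deposited 1 table of whole-number gene counts covering all 4 libraries (146584 to 2417410 counts). The tools listed, per the submitters' processing notes, are DESeq 1.18.1, HTSeq 0.6.0, SAMtools 1.3.1 and HISAT2 2.0.4, with build hg38. The sources used here do not give the annotation, read filters or strand setting, and how reads of overlapping genes were assigned is unknown. Symbols, lengths and overlaps came from GENCODE release 29 (GRCh38), which matched 19902 of 19912 identifiers.

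The counts were tested with edgeR 4.0.16 in R 4.3.3 over all genes: TMM scaling, filterByExpr (minimum count 10, minimum total 15), glmQLFit with its default dispersion and glmQLFTest on genotype. A gene was called at 0.05 after Benjamini-Hochberg adjustment over 11380 genes. Each SE was derived from the fold change and its F statistic, and approximate intervals use it with the fit's degrees of freedom. Alternatives were DESeq2 1.42.0, limma-voom (limma 3.58.1), other scalings, filters and dispersion, a replicate block and each library left out. The code of the fit was run on simulated counts with the same dispersion for every gene. That run does not show how the fit performs on the spread of these libraries. The text names all 9 genes, called genes and up to 3 of smallest p per list, and the 5 most like GFI1. The 9 genes and the lists were chosen with earlier results of these data known.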

Additional observations from a re-analysis of the deposited data

How the results depend on the processing

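Of 117 comparisons of a corepressor or repressor gene with another setting, 111 kept their direction and their side of the threshold. The GFI1 call was lost in 4, with DESeq2 (-1.58) and on leaving out a library, where its value ran from -1.57 to -1.54. With a library left out, RCOR2 ran from -0.19 to 0.34, changing sign without GFI1-KO replicate 2 (0.34) or WT replicate 1 (0.04). The count of called genes among the 9 was 0 with DESeq2 and 0 to 1 with a library left out. Over all genes, 109 were called in the main fit, 29 with DESeq2, 58 with the newer dispersion, 58 with upper-quartile scaling, 72 with library totals only, 305 without a low-count filter, 50 at a mean of at least 5 CPM, and 62 to 373 with a library left out. Labels give both genotypes replicate numbers 1 and 2, but nothing ties them to a shared differentiation. Same-numbered libraries deviated with a correlation of 0.112. This value cannot decide on pairing, since counting error in the shallow GFI1-KO replicate 1 (median 6 counts per tested gene) weakens it either way. With the replicate block 327 genes were called, GFI1 among them and no other of the 9. KDM5B ran from -0.08 (without GFI1-KO replicate 1) to 0.50, and SNAI1 from -1.05 (without GFI1-KO replicate 2) to 0.96. With principal transcript lengths, chosen after seeing the data, the shares in WT and GFI1-KO were 44.3% and 60.5% for GFI1B, 62% and 67.8% for HDAC1, 36.5% and 45.3% for RCOR1, 34% and 36.1% for RCOR2, and 29.5% and 18.6% for RCOR3. The cause of these changes was not tested. The 146584 counts of GFI1-KO replicate 1 limit every comparison. The fixed limit of 3 counts taken here for a count of 0 is 19.9 CPM there, as high as the GFI1 level in that library. By the exact 95% Poisson interval, a count of 0 there reaches 24.4 CPM.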
